A study of Mus musculus with 6 samples.

Results

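Hepatic transcripts for the making of triglyceride and for its storage in lipid droplets were compared between mice lacking Atp7b and wild-type mice. The genes were chosen by symbol from the platform annotation: the lipins Lpin1 and Lpin2, the acyltransferases Gpam, Agpat2, Mogat1, Dgat1 and Dgat2, the lipase Pnpla2, and the droplet proteins Plin2 and Cidec. Of these 10 genes, 7 were measured by 11 probe sets, among 7163 genes with a probe set in the table. Agpat2, Mogat1 and Cidec were not analysed here. Each sample was total RNA from mouse liver on 1 Affymetrix array, with 3 arrays labelled as Atp7b knockout (KO903, KO904, KO905) and 3 labelled as wild type (WT4, WT5, WT6). Atp7b encodes the copper-transporting ATPase that is lost in Wilson disease, the knockout line was published earlier, and the series title places the livers early in copper accumulation. The labels give no age, sex, strain, diet, fasting state or time of sampling. They do not say whether the samples came from different animals; if not, the spread behind the p-values may be technical.

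Triglyceride is built on glycerol 3-phosphate in the endoplasmic reticulum and outer mitochondrial membrane of hepatocytes. Gpam adds an acyl chain to glycerol 3-phosphate, AGPAT enzymes add another to give phosphatidate, lipins remove the phosphate to give diacylglycerol, and Dgat1 or Dgat2 adds the last chain. The product is stored in droplets coated by perilipins such as Plin2, hydrolysed by the lipase Pnpla2 (also called ATGL), or exported in very low density lipoprotein. Lipin 1 also enters the nucleus, where it acts with PPARalpha and PGC-1alpha on genes of fatty acid oxidation.

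Array medians lay between 330.2 and 342.4, and log2 signals correlated at 0.976 to 0.982 within a group and at 0.966 to 0.974 between groups. The targeted gene, Atp7b, read by 1 probe set, gave signals of 240.5, 231.8 and 184.9 in the knockout and 259.0, 299.7 and 241.0 in wild type. Its difference did not pass the test (log2 -0.27 ± 0.16, SE; limma adjusted p = 0.407), and whether its probes lie in the part of the gene altered in the knockout is not known here. The array therefore does not check the genotype labels. None of 6 tested hepatocyte markers was called by limma (1 had an unadjusted p under 0.05, lower), and their summed signal was 105499 to 120900 in the knockout and 112726 to 137643 in wild type. In RNA of whole tissue, fewer cells of a type and less RNA per cell cannot be told apart.

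Promoter sequences from RefSeq (build GRCm38.p6) matched 8 of the 10 genes, with 12 start sites. Dgat1 and Dgat2 were not matched, so their promoters were not searched. The matched genes include Agpat2, Mogat1 and Cidec, which have no expression values here. The 250 bases before a start are shown for Lpin1, which differed most among these genes, for Lpin2, which moved with it, and for Gpam, the entry enzyme of the pathway. Capitals mark matches on either strand. An E-box, the site of clock and USF factors among others, was searched as CACGTG and counted once because it reads the same on both strands. The site of NF-Y was searched as CCAAT, and a GC box as GGGCGG. A sterol regulatory element, the site of the lipogenic SREBP factors, was searched as TCACNCCAC. The shown matches do not overlap each other. The Lpin1 window, chr12:16610967-16611216 on the minus strand, held none of the 4 motifs. The Lpin2 window at chr17:71183282-71183531 on the plus strand held 1 E-box and 1 GC box, 9 and 24 bases before the start. Another Lpin2 window, chr17:71204404-71204653 on the plus strand, held 3 CCAAT boxes. The upstream Gpam window, chr19:55127239-55127488 on the minus strand, held 1 CCAAT box, 74 bases before the start. The other Gpam window (chr19:55099478-55099727) and the remaining Lpin2 window (chr17:71183728-71183977) each held 1 GC box and are not shown.
Lpin1: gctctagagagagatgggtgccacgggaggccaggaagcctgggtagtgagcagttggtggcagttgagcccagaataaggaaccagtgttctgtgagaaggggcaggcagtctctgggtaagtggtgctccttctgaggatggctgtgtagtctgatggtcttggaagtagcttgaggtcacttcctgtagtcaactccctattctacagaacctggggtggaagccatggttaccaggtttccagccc
Lpin2, upstream start: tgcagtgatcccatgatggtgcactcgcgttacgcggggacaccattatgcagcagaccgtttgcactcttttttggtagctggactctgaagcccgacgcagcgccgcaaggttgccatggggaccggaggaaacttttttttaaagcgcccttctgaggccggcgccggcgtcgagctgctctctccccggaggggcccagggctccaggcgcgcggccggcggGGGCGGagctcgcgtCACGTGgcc
Lpin2, downstream start: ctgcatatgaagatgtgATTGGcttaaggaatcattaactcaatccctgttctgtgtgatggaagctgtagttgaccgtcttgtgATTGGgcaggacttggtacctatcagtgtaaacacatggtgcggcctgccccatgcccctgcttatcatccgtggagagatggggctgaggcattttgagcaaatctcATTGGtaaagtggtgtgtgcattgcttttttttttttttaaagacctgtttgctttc
Gpam, upstream start: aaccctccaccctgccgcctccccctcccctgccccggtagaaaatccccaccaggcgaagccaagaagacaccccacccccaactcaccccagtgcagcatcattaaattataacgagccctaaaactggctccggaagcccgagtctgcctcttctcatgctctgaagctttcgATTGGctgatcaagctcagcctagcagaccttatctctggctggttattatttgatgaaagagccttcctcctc

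Among all 32851 windows of this length, 6.02% held an E-box, 1.05% the sterol regulatory element, 33.8% a CCAAT box and 32.7% a GC box. None of the 12 windows of the 8 matched genes held the sterol regulatory element, and Dgat1 and Dgat2 had no window to search. The E-box of Lpin2 was the only one among the 12 windows, and the windows of Plin2 and Pnpla2, whose transcripts are described further on, held 1 CCAAT box and 2 GC boxes. A match describes the letters of the window and is no evidence of binding, and a missing match says nothing about a factor.

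Lipin transcripts and Dgat2 were lower in the knockout livers, and Dgat1, Pnpla2 and Plin2 did not pass the test. Of the 7 genes, 3 fell (Lpin1, Lpin2 and Dgat2), none rose and 4 did not pass limma's test at an adjusted p of 0.05; 4 had an unadjusted p under 0.05, all lower. Among all 6604 tested genes, 18.0% had an unadjusted p under 0.05 (7.84% lower and 10.1% higher), the rate against which the unadjusted counts given here and for the lists are to be read. After adjustment, 1.80% were called lower and 2.14% higher, 3.94% in all. The log2 difference was below 0 for 5 of the 7, against 43.6% of all tested genes. The median log2 difference of the 7 genes was -0.53, against 0.03 over all tested genes. On 4 of the 7 genes all 3 knockout values lay below all 3 wild-type values, against 10.1% of all tested genes. The genes were chosen with earlier results of these data known, so the comparisons with all tested genes or probe sets are descriptions only. Of the 11 probe sets, 6 were called lower and none higher. Among all 10620 tested probe sets, 2.09% were called lower and 2.05% higher, 4.14% in all. The groups lay apart, with the knockout lower, on 8 of the 11 probe sets, against 10.4% of all tested probe sets. The log2 difference was below 0 on 9 of the 11, against 45.4%. All 11 passed the filter on low signal, the dimmest with a mean of 465.5.

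**Figure D1:**
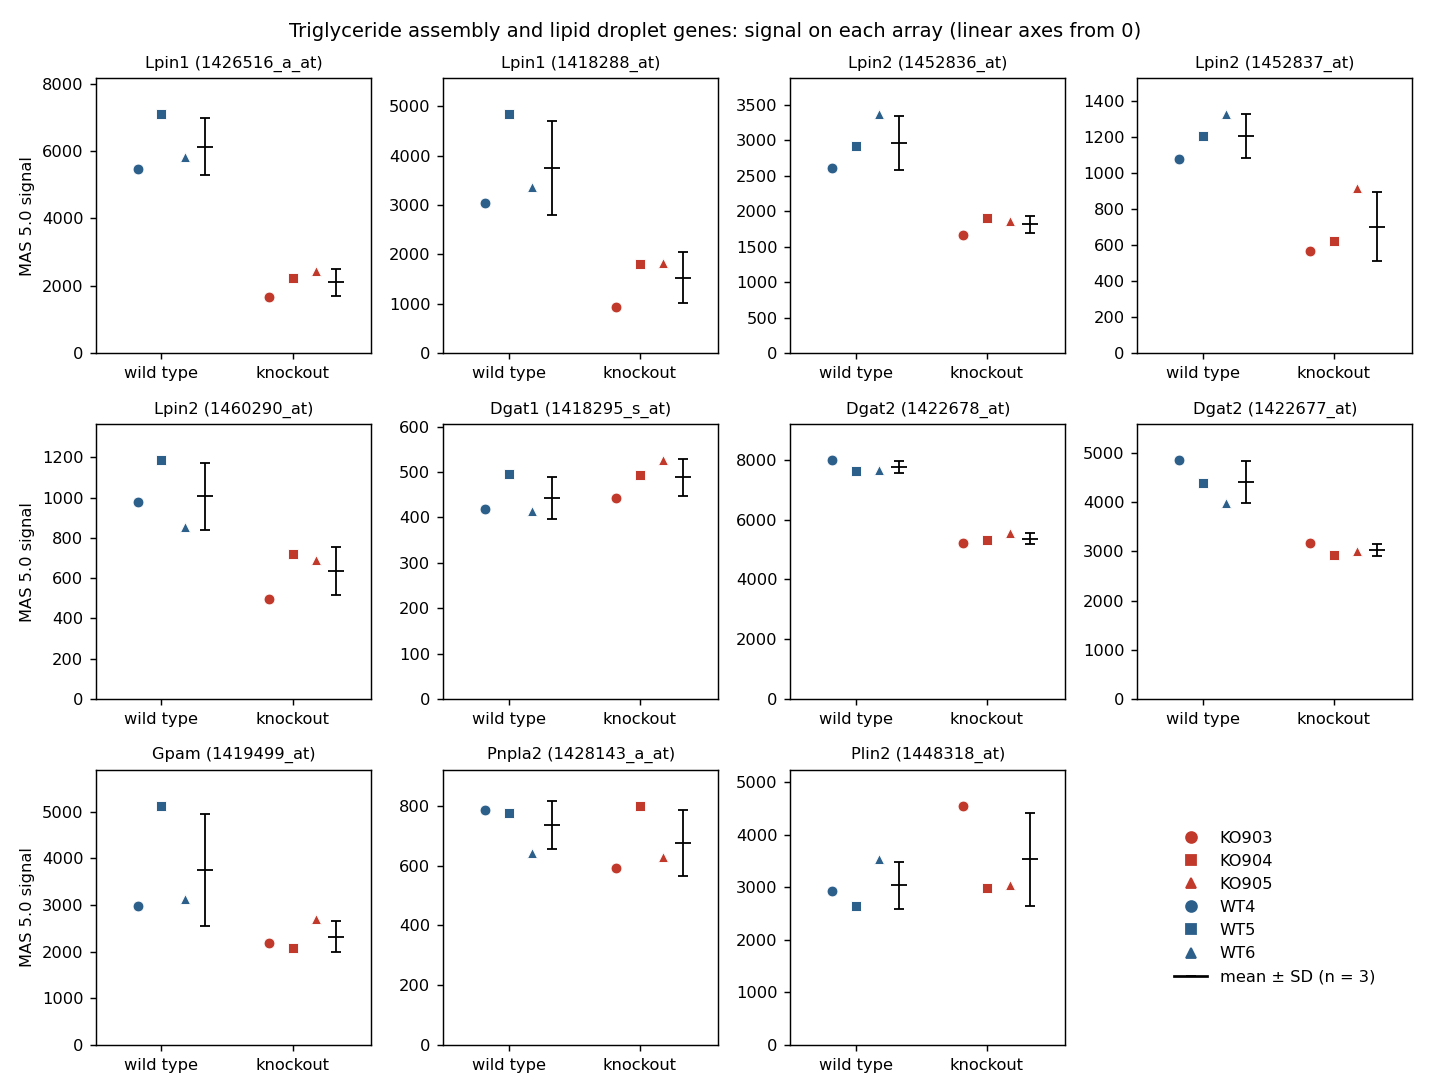
Signal (MAS 5.0, linear axes from 0) of each of the 11 probe sets on each array, with wild type in blue, knockout in red and the mean ± SD (n = 3) in black beside each group. The groups lie apart on all probe sets of Lpin1, Lpin2, Dgat2 and Gpam, and overlap on those of Dgat1, Pnpla2 and Plin2.

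Lpin1 encodes the lipin best known from the fatty liver dystrophy mouse, in which it is lost. Its brighter probe set, which represents the gene in counts and ranks, read 1671, 2226 and 2448 in KO903, KO904 and KO905, and 5472, 7092 and 5836 in WT4, WT5 and WT6. The highest knockout array was thus far below the lowest wild-type array, and KO903 was the lowest of all. Knockout arrays averaged 2115 ± 400 and wild-type arrays 6133 ± 850 (SD, n = 3 each). Lpin1 fell by 1.54 on the log2 scale (SE 0.15; limma adjusted p = 3.32e-04), to 34.4% of the wild-type level. This ranked 12 among the 6604 tested genes, counted from the largest fall. The other Lpin1 probe set read 942.8, 1816 and 1833 in the knockout and 3046, 4835 and 3358 in wild type. It gave the same direction, a log2 difference of -1.32 ± 0.24 (SE; adjusted p = 0.0142), with KO903 again well below the other knockout arrays. It still passed without KO903 (limma adjusted p = 0.0204).

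Lpin2 encodes the lipin that is abundant in liver. Its brightest probe set read 1673, 1910 and 1863 in the knockout and 2613, 2923 and 3368 in wild type, so the groups did not overlap. Lpin2 fell by 0.70 on the log2 scale (SE 0.12; limma adjusted p = 0.00903), to 61.6% of wild type. The middle probe set read 567.2, 619.6 and 918.3 against 1079, 1204 and 1324, a log2 difference of -0.79 ± 0.17 (SE; adjusted p = 0.0296). In the knockout, KO905 lay nearest to wild type on this probe set. Its call ended without KO903, KO904 or WT6 (adjusted p 0.109, 0.123 and 0.0885). The dimmest probe set read 498.6, 721.8 and 688.5 against 979.1, 1186 and 854.2. It missed the threshold at a similar size (log2 -0.65 ± 0.17, SE; adjusted p = 0.0549). On all 3 probe sets of Lpin2 the groups lay apart.

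The enzymes of the last acylation, Dgat1 and Dgat2, are unrelated in sequence and catalyse the same step. Dgat2 read 5208, 5310 and 5567 in the knockout and 7992, 7638 and 7671 in wild type. The arrays of a group were closer together than for any other of the 7 genes, with a coefficient of variation of 3.45% in the knockout and 2.52% in wild type. Dgat2 fell by 0.53 on the log2 scale (SE 0.09; limma adjusted p = 0.00734), to 69.1% of wild type. Its dimmer probe set read 3160, 2916 and 3001 against 4853, 4393 and 3985. The difference there was -0.54 ± 0.10 (log2, SE; adjusted p = 0.0173), nearly the same size. That call ended without KO904, KO905 or WT4 (adjusted p 0.0833, 0.0679 and 0.0632).

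Dgat1 read 443.5, 494.0 and 526.1 in the knockout and 418.3, 495.9 and 415.1 in wild type, with overlapping groups. Its log2 difference was 0.14 ± 0.13 (SE; limma adjusted p = 0.663), with a 95% interval of -0.16 to 0.43. The Dgat1 probe set carries the suffix that Affymetrix gives to sets able to match more than 1 gene, and its specificity was not examined.

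Gpam encodes the mitochondrial acyltransferase that starts the pathway. Its probe set read 2176, 2077 and 2693 in the knockout and 2972, 5122 and 3128 in wild type. The groups did not overlap, but WT5 stood far above the other wild-type arrays, and the wild-type coefficient of variation was 32.0%. The log2 difference of -0.65 ± 0.19 (SE) had a 95% interval of -1.07 to -0.24 and an unadjusted p of 0.00550, and did not pass after adjustment (limma adjusted p = 0.0842). Without WT5 it was -0.40 (adjusted p = 0.113).

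The lipase Pnpla2 and the droplet coat protein Plin2 had overlapping groups. Pnpla2 read 594.1, 800.6 and 630.8 in the knockout and 787.5, 777.1 and 644.1 in wild type. Its highest value was in KO904 and its lowest in KO903, and the log2 difference was -0.13 ± 0.15 (SE; limma adjusted p = 0.717; 95% interval -0.45 to 0.19). Plin2, whose protein accumulates with stored triglyceride, read 4550, 2992 and 3050 in the knockout and 2932, 2653 and 3532 in wild type. KO903 was above every other array, and the other knockout arrays lay within the wild-type range. The log2 difference was 0.20 ± 0.17 (SE; adjusted p = 0.593; 95% interval -0.17 to 0.56), and it was 0.00 without KO903.

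**Figure D2:**
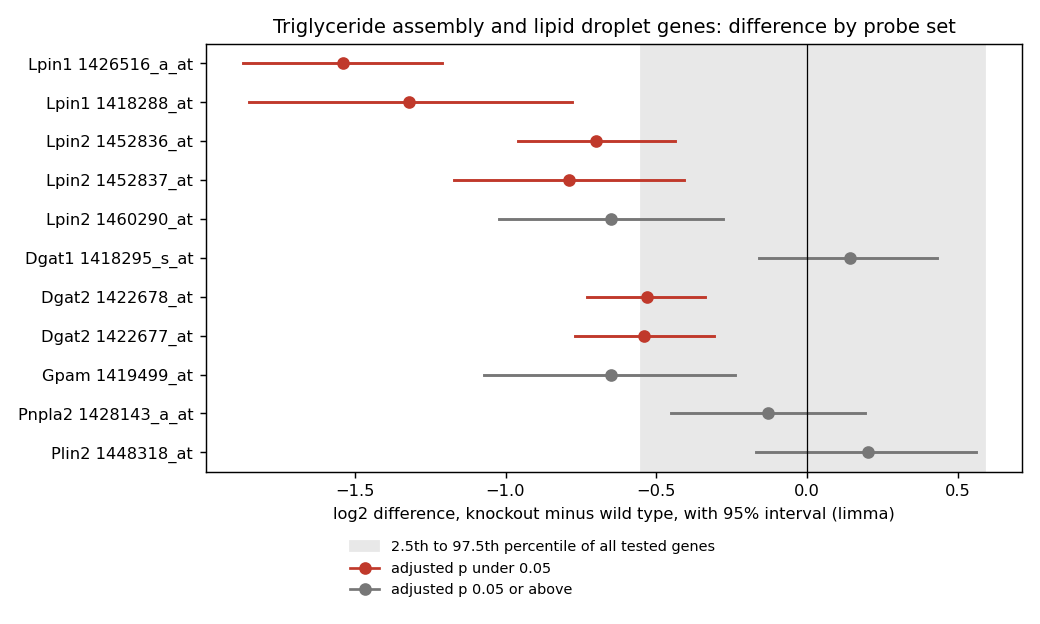
Log2 difference (knockout minus wild type, points) with limma's 95% interval (lines) for each of the 11 probe sets; red marks an adjusted p under 0.05, and the grey band holds the middle 95% of all tested genes (-0.55 to 0.59). Both Lpin1 probe sets lie below the band with their whole interval, while the estimates of Dgat1, Pnpla2 and Plin2, and also those of both called Dgat2 probe sets (-0.53 and -0.54), lie inside it.

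On each array the log2 ratio of a pair of genes was taken between their brightest probe sets, for 5 pairs picked with the values known. The change of each ratio between groups is given as a description, since 3 against 3 arrays cannot pass a permutation test at 0.05. Lpin1 against Lpin2 changed by -0.84 ± 0.18 (log2, SE), Lpin1 against Dgat2 by -1.0 ± 0.19 and Lpin1 against Gpam by -0.89 ± 0.20. Dgat2 against Dgat1 changed by -0.67 ± 0.10. In these 4 pairs the groups did not overlap. Plin2 against Pnpla2 changed by 0.33 ± 0.36, with overlapping groups. Ratios with the dimmer probe sets of Lpin1, Lpin2 and Dgat2 were not taken, so whether the groups stay apart on those is not known here. The dimmer Lpin1 probe set differed less than the brightest (log2 -1.32 against -1.54), and the middle Lpin2 probe set more (-0.79 against -0.70).

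Other genes of the pathway were read from 5 lists, 105 genes in all, of which 68 were tested. Of the 68 genes, 5 fell, 2 rose and 61 did not pass, with a median log2 difference of -0.05. The rates over all tested genes are those given above, 1.80% lower and 2.14% higher.

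In the list of glycerol 3-phosphate supply and acylation, limma called none of 9 tested genes (2 had an unadjusted p under 0.05, both higher), and the median was 0.07. The brightest were Aqp9, the glycerol channel of the hepatocyte, with a log2 difference of 0.28 ± 0.12 (SE; adjusted p = 0.264), and Lpgat1, an acyltransferase of lysophospholipids (-0.11 ± 0.12; adjusted p = 0.726). The other Aqp9 probe set also gave 0.28 (limma adjusted p = 0.196), and the groups lay apart on both. The other 3 Lpgat1 probe sets gave -0.29 with the groups apart, -0.18 and 0.10, none of them called. Limma also called none of 16 genes of the phospholipid branch, which draws on diacylglycerol and phosphatidate (3 lower and 1 higher had an unadjusted p under 0.05; median -0.07). Its brightest genes were Pemt, which methylates phosphatidylethanolamine (log2 0.13 ± 0.11, SE; adjusted p = 0.598), and Pcyt2. Pcyt2, the regulated enzyme of phosphatidylethanolamine synthesis from diacylglycerol, read 1683, 1762 and 1722 in the knockout and 2364, 2994 and 1957 in wild type. Its groups lay apart, but the log2 difference of -0.48 ± 0.14 (SE) did not pass (adjusted p = 0.0964), except without WT6 (adjusted p = 0.0358).

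Of 9 tested genes for droplet coat and droplet formation, limma called none (1 lower and 3 higher had an unadjusted p under 0.05), with a median of 0.09. Hsd17b11, a droplet-bound dehydrogenase, had a log2 difference of 0.18 ± 0.14 (SE; adjusted p = 0.538), with 0.41 on its other probe set, where the groups lay apart (adjusted p = 0.124), and 0.30 over the mean of both. Cideb, a CIDE protein of hepatocyte droplets and lipoprotein assembly, had a difference of 0.09 ± 0.10 (adjusted p = 0.708).

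Triglyceride hydrolysis and transfer was the list with calls in opposite directions: of 14 tested genes 2 fell and 2 rose, with a median of 0.03. G0s2, the inhibitor of Pnpla2, read 472.8, 319.8 and 317.5 in the knockout and 572.4, 683.2 and 1294 in wild type. All knockout arrays were below all wild-type arrays, with WT6 far above the rest. G0s2 fell by 1.10 on the log2 scale (SE 0.26; limma adjusted p = 0.0432). Aadac, an esterase of the endoplasmic reticulum related to lipases, read 3855, 4105 and 3997 against 5192, 6226 and 6574, and fell by 0.58 (SE 0.11; adjusted p = 0.0143). Tm6sf2, which promotes the lipid loading of very low density lipoprotein, read 1028, 1331 and 1378 against 747.8, 920.4 and 611.5. It rose by a log2 difference of 0.71 ± 0.17 (SE; adjusted p = 0.0386). Ces1g, a carboxylesterase of lipid metabolism, read 1930, 1407 and 1813 against 1058, 891.9 and 1307, and rose by 0.66 ± 0.16 (SE; adjusted p = 0.0470). Ces1g has close paralogs, and cross-hybridisation was not examined.

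These 4 calls did not hold with every array left out. G0s2 no longer passed without WT6 or without any 1 of the knockout arrays (adjusted p up to 0.157), and its log2 difference was -0.76 without WT6. Aadac lost its call without those same arrays (up to 0.0581). Tm6sf2 lost it when WT4, WT6, KO904 or KO905 was dropped (up to 0.147). Ces1g kept it only when WT6 was the array dropped (up to 0.166 otherwise), and lost it after median centring (0.0554).

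**Figure D3:**
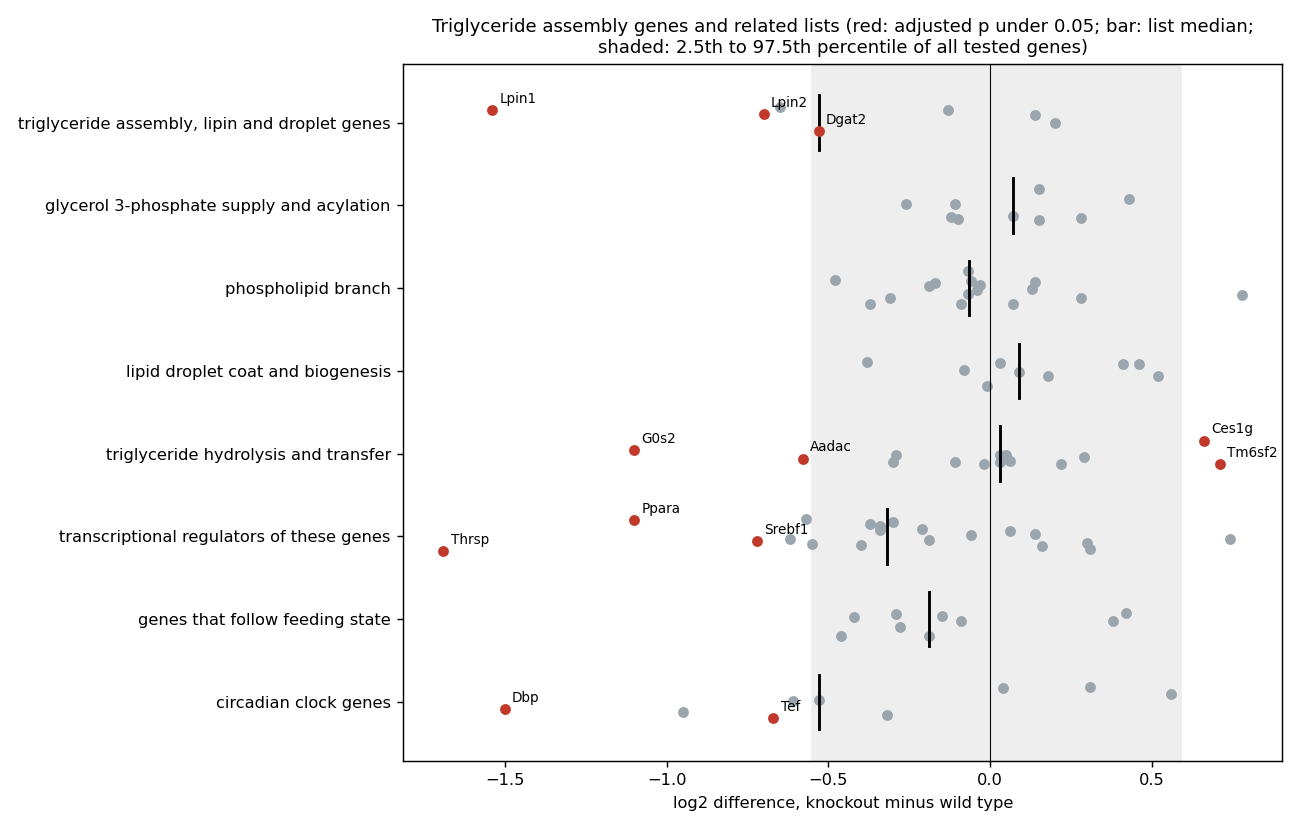
Log2 difference (knockout minus wild type) of every tested gene, by list, with called genes in red and named, list medians as black bars and the middle 95% of all tested genes shaded. The medians of the acylation, phospholipid, droplet and hydrolysis lists lie between -0.07 and 0.09, and those of the regulators and of the clock genes at -0.32 and -0.53.

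Of 20 tested genes listed as regulators of these genes, 3 fell and none rose by limma (13 had an unadjusted p under 0.05, 10 lower and 3 higher), with a median of -0.32. The list is broader than transcription factors and includes proteins of SREBP processing and of insulin signalling. Thrsp, a nuclear regulator of lipogenesis, read 2934, 3784 and 5117 in the knockout and 11473, 17122 and 9867 in wild type. As on the probe sets of Lpin1 and Gpam, WT5 was the highest array. Thrsp fell to 30.9% of wild type (log2 -1.69 ± 0.22, SE; limma adjusted p = 0.00180). Its other probe set gave a log2 difference of -1.94 (limma adjusted p = 8.64e-04). Ppara, the nuclear receptor of fatty acid oxidation with which lipin 1 acts, read 1233, 1390 and 1067 against 2380, 2374 and 3250. It fell to 46.7% of wild type (log2 -1.10 ± 0.15, SE; adjusted p = 0.00258). Srebf1, which encodes the SREBP-1 factor, read 2192, 1634 and 1858 against 3786, 2702 and 2914. It fell to 60.9% (log2 -0.72 ± 0.15, SE; adjusted p = 0.0235). It did not pass when WT4, KO904 or KO905 was dropped (up to 0.106).

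Lpin1 transcription is known to follow fasting, glucocorticoids and the time of day, and the labels give none of these, so lists of feeding-state and clock genes were read beside it. Of 9 tested genes that follow feeding state, limma called none (2 lower and 2 higher had an unadjusted p under 0.05; median -0.19). Tat, which is induced by glucocorticoids, had a log2 difference of -0.42 ± 0.12 (SE; adjusted p = 0.0803), and Pck1, of gluconeogenesis, of -0.19 ± 0.10 (adjusted p = 0.361). The summed signal of the list was 26331 to 29334 in the knockout and 30874 to 32761 in wild type. Tat, its brightest gene, weighed most in this sum, with a mean of 9451 in the knockout and 12727 in wild type. Tat is also in the hepatocyte list, and a sum without it was not taken. The sums therefore cannot show whether the list moved as a whole. By gene, the log2 difference was below 0 for 7 and above 0 for 2, against 43.6% below 0 among all tested genes. The groups lay apart for 4 genes, 3 lower and 1 higher, against 24.1% of all tested genes in either direction.

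Among 9 tested clock genes, 2 fell and none rose by limma (8 had an unadjusted p under 0.05, 6 lower and 2 higher), with a median of -0.53. Dbp, a clock output factor with a strong daily rhythm, read 435.1, 714.8 and 456.3 in the knockout and 1403, 1343 and 1797 in wild type. It fell to 35.4% of wild type (log2 -1.50 ± 0.19, SE; adjusted p = 0.00162), and its other probe set gave -1.42, also called. Its relative Tef read 1232, 1633 and 1292 against 2235, 1997 and 2387, and fell by 0.67 on the log2 scale (SE 0.13; adjusted p = 0.0176). Without KO903, KO905, WT4 or WT6 its difference was -0.59, -0.63, -0.66 and -0.61 and no longer passed (adjusted p up to 0.0787). The summed signal of the clock list did not overlap between groups, at 5042 to 6023 in the knockout and 7570 to 9441 in wild type. The part of sampling time or feeding in the lipin values was not tested.

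Markers of other cells were read in the same way. All 8 tested macrophage markers had log2 differences above 0 (0.07 to 0.73), none passed limma's test (4 had an unadjusted p under 0.05), and their summed signal was 5674 to 7638 in the knockout and 4063 to 5708 in wild type. Of 6 endothelial markers limma called none (2 higher and 1 lower had an unadjusted p under 0.05; summed signal 2463 to 2903 against 2097 to 2478). Of 5 stellate cell markers limma also called none (1 at an unadjusted p under 0.05, higher), and the sums overlapped at 5619 to 6590 and 4795 to 6671. Of 2 lymphocyte markers none was called by limma (1 at an unadjusted p under 0.05, higher; summed signal 311.5 to 331.6 against 233.0 to 295.2). Of these 2, 1 is a marker of leukocytes in general, so their sum does not single out lymphocytes. Of the adipocyte markers only Fabp4 was tested, at 110.8, 91.20 and 121.9 in the knockout and 178.6, 99.00 and 142.1 in wild type. Alas2, the erythroid enzyme of heme synthesis and the red cell marker tested, rose by a log2 difference of 1.0 ± 0.13 (SE; limma adjusted p = 0.00183). Markers of cholangiocytes and skeletal muscle were not analysed here, and the part of other cells in the lipid gene values was not tested.

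The genes whose log2 signals followed those of Lpin1 most closely over the 6 arrays were Strn3 (Pearson r = 0.997), Nudt4 (0.992) and Glul (0.991). They encode a striatin subunit of protein phosphatase 2A, a diphosphoinositol polyphosphate hydrolase and glutamine synthetase. These correlations describe points that share arrays and fall into separate groups. The differences were much smaller than that of Lpin1, with log2 values of -0.41 ± 0.12, -0.43 ± 0.10 and -0.40 ± 0.09 (SE; limma adjusted p 0.0879, 0.0388 and 0.0400). The calls of Nudt4 and Glul ended with any 1 array left out (adjusted p up to 0.138 and 0.134), and over the mean of each gene's probe sets the differences were -0.15 and -0.27.

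**Figure D4:**
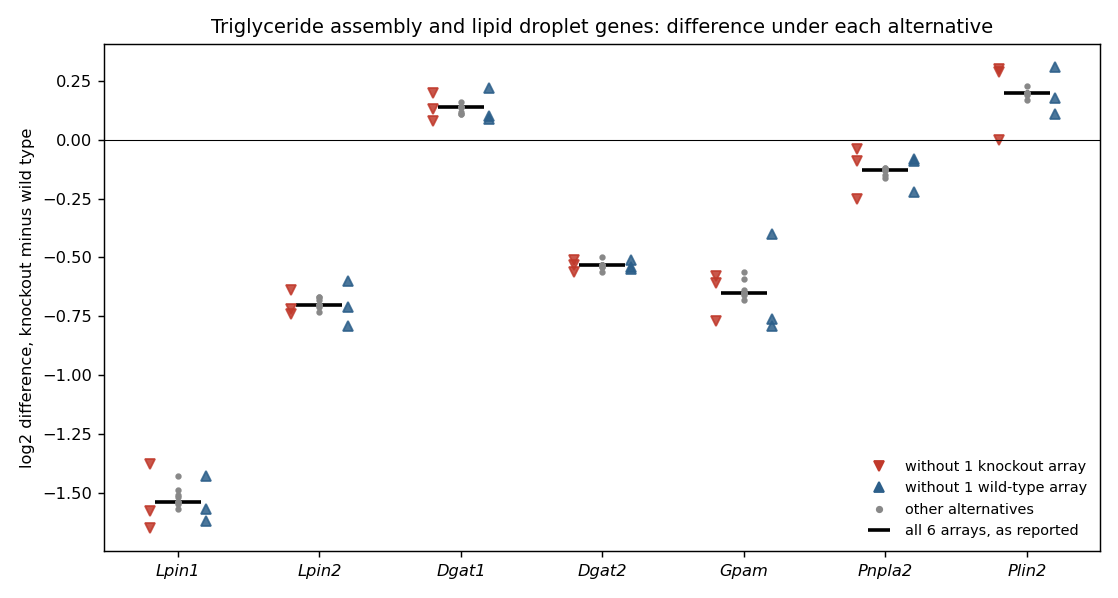
Log2 difference (knockout minus wild type) of the brightest probe set of each of the 7 genes, as reported (black bars), with 1 knockout array left out (red), 1 wild-type array left out (blue) and under the other alternatives (grey). Lpin1 stayed between -1.65 and -1.38, Lpin2 and Dgat2 stayed below 0, Gpam ranged from -0.79 to -0.40, and Plin2 reached 0.00 without KO903.

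On their brightest probe sets, Lpin1, Lpin2 and Dgat2 passed the test with each of the 6 arrays left out in turn. The log2 differences then ranged from -1.65 to -1.38 for Lpin1 (adjusted p up to 0.00353), from -0.79 to -0.60 for Lpin2 (up to 0.0422) and from -0.56 to -0.51 for Dgat2 (up to 0.0442). The range of Lpin1 did not overlap those of Lpin2 and Dgat2. Gpam, Dgat1, Pnpla2 and Plin2 were not called with any array left out.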

How the data were processed

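Total liver RNA of 3 samples labelled knockout and 3 labelled wild type was read on 1 array each. The deposited table holds linear intensity values: MAS 5.0 signals that the authors scaled per array to a target average of 350, per the labels. The rule that picked the table's 11811 probe sets is unknown here. MAS 5.0 subtracts mismatch signals, so low signals are noisy. Sequencing depth does not apply, and the number of arrays limits the precision.

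Gene symbols came from the platform annotation, updated by Entrez identifier through a RefSeq table (GRCm38.p6). Of 11778 probe sets other than controls, 10776 had 1 symbol, 418 several and 584 none; those with several were not named. The 10620 with a mean signal of at least 100 were tested on log2(signal + 16) with limma 3.58.1 in R 4.3.3 (lmFit and eBayes, trend on, two-sided; threshold 0.05 after Benjamini-Hochberg adjustment over these probe sets). Fold changes on this scale understate those of low signals. Errors of log2 differences are limma's moderated standard errors; for pair ratios they are those of the difference of means, with no test. The probe set with the highest mean signal stood for a gene. No arrays held duplicate values (at most 0.0847% identical).

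The text names the 7 genes with all their probe sets, up to 5 called genes per list with the smallest p (where fewer than 2 were called, the 2 brightest), the targeted gene, cell markers singled out after their values were seen (Fabp4, Alas2), and the 3 genes most correlated with Lpin1. The genes and lists were chosen with earlier results of these data known. The fit was tested on simulated data with independent normal noise and limma's own spreads, which checks the code and not the errors of the real arrays. No limit was set there on the recovery of differences as small as that of Dgat2. Alternatives were quantile normalization, median centring, a pseudocount of 1 or 64, no filter or a minimum of 200, eBayes without trend or robust, array weights, each array left out, and the mean over a gene's probe sets.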

Additional observations from a re-analysis of the deposited data

How the results depend on the processing

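Lpin1, Lpin2 and Dgat2 were the 3 genes called lower, and 0 of the 7 were called higher, under each of the 16 alternatives run. Single probe sets moved across the threshold: without the trend the dimmer probe sets of Lpin2 and Dgat2 no longer passed (adjusted p 0.0553 and 0.0554), and the dimmest of Lpin2 passed after median centring (0.0469) and with array weights (0.0470). Among the 68 other pathway genes, calls fell from 5 lower and 2 higher to 3 and 0 without the trend, and were 7 and 1 after median centring and 7 and 3 with array weights and with the mean over probe sets. With 1 array left out they numbered 2 to 6 lower and 0 to 3 higher, and the count over all probe sets, 440, ranged from 175 to 475; fewer arrays were then fitted. It was 193, 175 and 228 without KO903, KO904 and KO905, 254 without WT4, 272 without WT6 and 475 without WT5. Without the trend the calls of Srebf1 (0.0552), G0s2 (0.0725), Tm6sf2 (0.0700), Ces1g (0.0827), Nudt4 (0.0833) and Glul (0.101) ended, and that of G0s2 also in the robust fit (0.0504); the cause was not tested. None of the log2 differences of the 7 genes changed sign under these alternatives. The pair ratios and Cebpa, Cebpb, Rab18 and Spg20 were not rerun under them. No paired analysis was possible because the groups share no sample numbers.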

Other observations

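Within the knockout group, KO903 was at an end of the range for 6 of the 7 genes: it was the lowest array for 5 (Lpin1, Lpin2, Dgat1, Dgat2 and Pnpla2) and the highest for Plin2. KO904 and KO905 were each at an end for 4 genes, and the wild-type arrays for 4 or 5. Its readings farthest from the other knockout arrays included its Lpin1 signal of 942.8 on the dimmer probe set and its Plin2 signal of 4550.

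Several regulator and droplet genes lay just outside the threshold, and were picked here after their values were seen. Cebpa, a hepatocyte transcription factor, read 4332, 4365 and 3721 in the knockout and 5260, 5807 and 5313 in wild type (log2 -0.40 ± 0.10, SE; limma adjusted p = 0.0539). Cebpb, of the same list, read 1536, 2246 and 2202 against 2985, 2638 and 3562 (log2 -0.62 ± 0.16, SE, limma adjusted p = 0.0556). Rab18, a GTPase of droplets, read 2228, 2445 and 2324 against 1918, 1746 and 1607 (log2 0.41 ± 0.11, SE; adjusted p = 0.0609), and Spg20, which encodes spartin, 590.5, 617.0 and 670.4 against 379.7, 447.1 and 471.9 (log2 0.52 ± 0.13, SE; adjusted p = 0.0511). In each the groups did not overlap, which held for 24.1% of all tested genes.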
